A study of Mus musculus with 4 samples.

Results

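The genes described here are 31 genes of cholesterol and fatty acid synthesis and of its control by the sterol regulatory element-binding proteins (SREBPs). They were taken by gene symbol from a table of 24346 rows, and all 31 had a row. They comprise 17 enzymes of sterol synthesis, 9 enzymes of fatty acid synthesis and 5 regulators and carriers of sterol, and the enzymes are compared as 2 arms. The cells were mBMSCs, stromal cells grown out of the bone marrow of C57BL/6 mice (C57BL/6J in the methods) aged 3 months. They were transfected with scrambled siRNA (siScr) or with siRNA against ZBP1 (siZBP1), with Lipofectamine RNAiMAX in both groups, and RNA was collected after 72 h from 2 samples in each group. The methods describe 2 siRNAs against ZBP1. For RNA-seq they mention siRNAs against ZBP1 without stating which were used. In these samples an effect of ZBP1 loss and another effect of the siRNA used cannot be told apart. Nothing states that replicates came from separate mice or cultures, so the p-values measure only the spread between these samples.

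Cells build cholesterol from acetyl-CoA through mevalonate, squalene and lanosterol, and they build fatty acids by joining acetyl-CoA units, lengthening the chain and adding double bonds. SREBP2, encoded by Srebf2, mainly drives the sterol genes and SREBP1, encoded by Srebf1, mainly the fatty acid genes. The precursors sit in the endoplasmic reticulum with the escort protein SCAP, INSIG proteins hold them there when sterol is plentiful, and they move to the Golgi for processing when sterol is low.

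Zbp1 measured 86 and 62 FPKM (sequenced fragments scaled to transcript length and to the mapped reads of the sample) in siScr cells and 11.5 and 11.6 FPKM in siZBP1 cells (limma log2 fold change -2.56, SE 0.16, adjusted p = 0.00322), as the labels say. All fold changes on the log2 scale are differences of log2(FPKM + 1), siZBP1 minus siScr, which understates the change of low genes. Folds without a log are ratios of mean FPKM. The mesenchymal markers summed to 5917 and 4894 FPKM in siScr and 3499 and 3533 FPKM in siZBP1 cells, and 5 of the 12 tested fell and 1 rose. Most of the fall in that sum was Col1a1, at 3066 and 2520 FPKM in siScr and 1128 and 1191 FPKM in siZBP1 cells. Another 6 of those markers had no call, and the 1 that rose was Nt5e. The 16 macrophage markers, each with a mean of at least 63.5 FPKM, summed to 9737 and 10761 FPKM in siScr and to 15295 and 14538 FPKM in siZBP1 cells, and 11 of them rose. These cultures thus held abundant macrophage transcripts beside the labelled cell type, and the part of this shift in the values below was not tested. In bulk RNA, fewer cells of a type and less RNA per cell cannot be told apart. The fat-cell markers Plin1, Cidec, Lep, Retn and Cfd were listed at 0 in every sample and Adipoq stayed under 0.22 FPKM, while the 12 adipocyte markers summed to 472 and 479 FPKM in siScr and 482 and 513 FPKM in siZBP1 cells. Of the 6 adipocyte markers that could be tested, 3 fell (Plin4, Pparg and Cd36) and 1 rose (Lpl, the largest part of the sum). Endothelial markers summed to 4.6 to 5.53 FPKM and lymphoid and erythroid markers to at most 0.305 FPKM per sample.

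Most of the genes that changed fell. Of the 31 genes, 13 were lower in siZBP1 cells at a limma adjusted p under 0.05 and 3 were higher, beside 14.8% lower and 13.5% higher among the 11959 genes tested. In the sterol arm 8 of 17 enzymes fell and 2 rose, and in the fatty acid arm 5 of 9 fell and 1 rose. None of the 5 regulators passed the test, and 3 of them had an unadjusted limma p under 0.05. The share of all genes tested at that unadjusted level was not counted, so counts at it, here and below, lack a background. The median log2 fold change was -0.25 for the sterol enzymes, -0.22 for the fatty acid enzymes and 0.01 for the regulators, beside 0.0045 for all genes tested. The changes were small, and the ratio of mean FPKM passed 1.5-fold downward in Elovl6, Mvk and Sc5d alone and upward in none of the 31, beside 8.73% downward and 4.24% upward among all 11859 genes given this ratio. Both siZBP1 samples lay below both siScr samples for 19 genes and above them for 8, beside 33.7% and 34.7% of all genes, and the groups overlapped for Idi1, Msmo1, Srebf1 and Acss2. Leaving out a siZBP1 sample ended all 16 calls at the adjusted threshold, with 11 of the 16 genes at an unadjusted limma p under 0.05 without siZBP1 replicate 1 and 14 without siZBP1 replicate 2. All genes together then gave 23 lower and 22 higher calls without replicate 1, and 38 lower and 22 higher without replicate 2. Leaving out either siScr sample also ended some of the 16 calls, and calls among all genes tested became fewer too. These fits rest on 1 siScr sample. None of the 16 changed sign in any of these fits. Their groups did not overlap with all samples, so leaving out 1 sample could not reverse a sign.

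**Figure D1:**
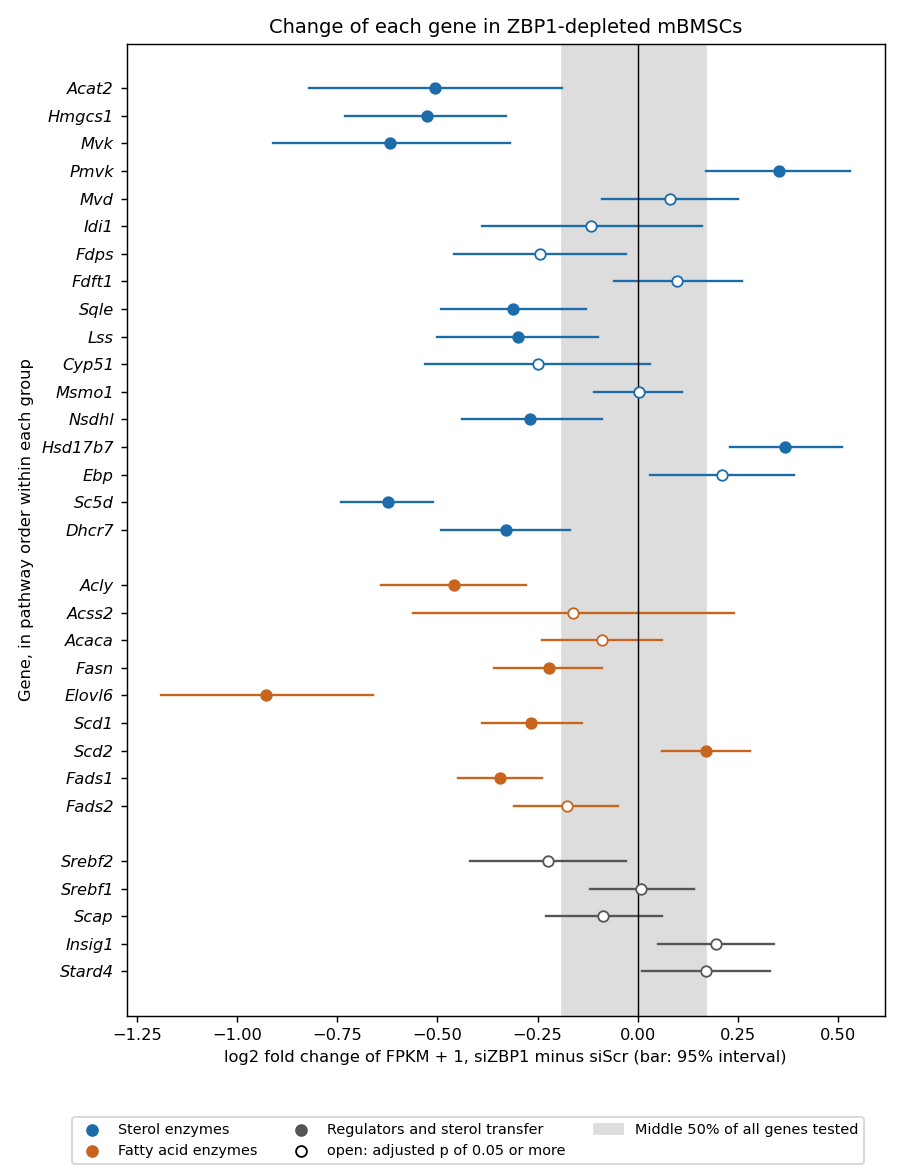
Change of each of the 31 genes. The x axis gives the log2 fold change of FPKM + 1 (siZBP1 minus siScr, n = 2 per group) with its 95% limma interval, genes run down the y axis in pathway order within each group, filled points passed an adjusted p of 0.05, open points did not, and the grey band spans the quartiles of all 11959 genes tested, -0.19 to 0.17. The 13 filled points left of 0 include Elovl6 at -0.93, and the 3 to its right are Pmvk, Hsd17b7 and Scd2.

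The 2 siScr samples differed from each other in the sterol arm. Of the 17 sterol enzymes, 16 were higher in siScr replicate 1 than in replicate 2, with a median log2 difference of 0.14, beside 55.0% of all genes and a median of 0.02. In siZBP1 cells, 8 of 17 were higher in replicate 1, with a median difference of -0.01. For the fatty acid enzymes the siScr difference was 0.04 at the median. The sterol median therefore moved with the siScr sample that was kept, at -0.14 when replicate 1 was left out and -0.35 when replicate 2 was left out, while the fatty acid median was -0.20 and -0.29. Relative to the siScr mean, the median sterol enzyme stood at -0.26 and -0.25 in the siZBP1 replicates and the median fatty acid enzyme at -0.25 and -0.26, so the medians of the 2 arms nearly coincided; the difference between the arms was not tested.

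**Figure D2:**
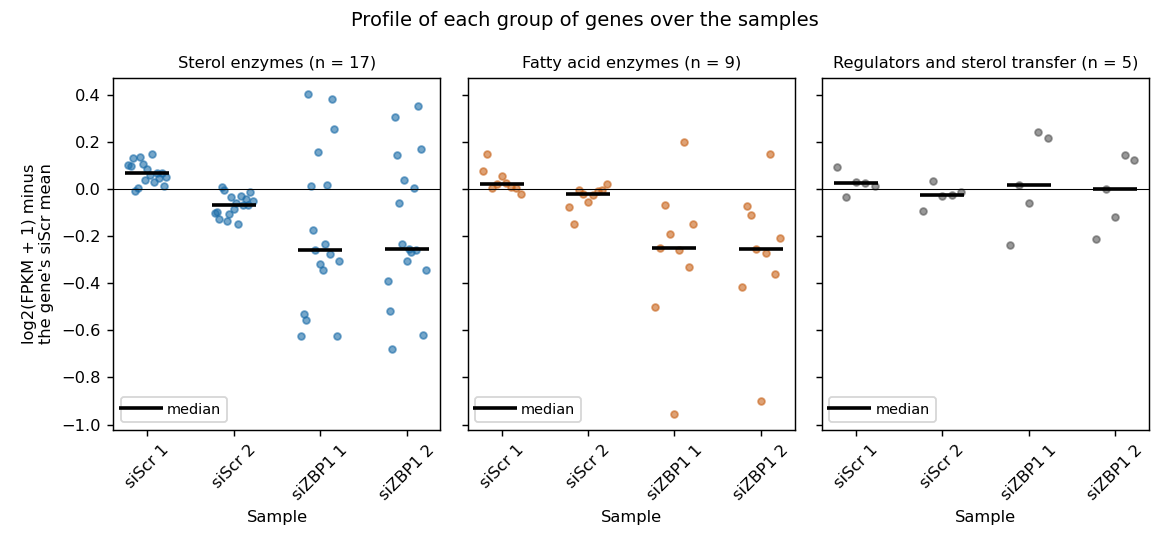
Profile of the 2 arms and the regulators by sample. The y axis gives log2(FPKM + 1) minus the gene's siScr mean, the x axis the samples, each point is 1 gene and the black bar the median (n = 17, 9 and 5 genes). The sterol median was 0.07 and -0.07 in the siScr samples, and both arms lay near -0.25 in the siZBP1 samples, while the regulators stayed at 0.01 and 0.0.

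The promoters of the 4 genes with the largest falls and the 2 with the largest rises in log2(FPKM + 1), among those past the test with a promoter window, are shown so that their motifs can be read beside their changes. They are RefSeq windows of 250 bases before to 50 bases after the annotated start on GRCm38.p6, printed 5' to 3' on the gene's strand, and 24 of the 31 genes had such a window. Capitals mark matches on either strand to TCACNCCAC (the core of a sterol regulatory element, SRE), CCAAT (bound by NF-Y, a common partner of SREBPs), CACGTG (an E-box) and GGGCGG (a GC box, bound by Sp1-type factors). Windows lie at chr3:129532136-129532435 on the plus strand for Elovl6, chr9:42264251-42264550 on the minus strand for Sc5d, chr5:114444019-114444318 on the plus strand for Mvk and chr13:119690101-119690400 on the plus strand for Hmgcs1. Those of the genes that rose lie at chr1:169969156-169969455 on the minus strand for Hsd17b7 and chr3:89454291-89454590 on the plus strand for Pmvk, the first of 2 windows of that gene.
Elovl6: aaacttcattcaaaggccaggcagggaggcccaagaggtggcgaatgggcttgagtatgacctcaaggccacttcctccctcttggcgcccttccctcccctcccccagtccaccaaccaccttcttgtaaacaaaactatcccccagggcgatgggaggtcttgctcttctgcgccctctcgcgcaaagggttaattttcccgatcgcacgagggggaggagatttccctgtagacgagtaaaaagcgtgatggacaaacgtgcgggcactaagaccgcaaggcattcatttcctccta
Sc5d: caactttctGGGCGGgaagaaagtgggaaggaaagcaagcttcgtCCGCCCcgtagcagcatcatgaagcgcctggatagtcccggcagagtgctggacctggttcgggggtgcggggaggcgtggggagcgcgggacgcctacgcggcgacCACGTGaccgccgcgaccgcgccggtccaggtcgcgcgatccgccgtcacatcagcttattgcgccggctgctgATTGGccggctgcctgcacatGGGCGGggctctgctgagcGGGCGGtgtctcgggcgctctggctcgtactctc
Mvk: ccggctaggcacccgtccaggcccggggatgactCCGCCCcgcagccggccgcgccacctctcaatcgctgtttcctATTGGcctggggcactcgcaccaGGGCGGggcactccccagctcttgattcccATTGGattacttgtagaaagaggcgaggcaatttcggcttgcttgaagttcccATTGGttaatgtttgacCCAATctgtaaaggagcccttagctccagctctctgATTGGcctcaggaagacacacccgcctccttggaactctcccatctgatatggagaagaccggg
Hmgcs1: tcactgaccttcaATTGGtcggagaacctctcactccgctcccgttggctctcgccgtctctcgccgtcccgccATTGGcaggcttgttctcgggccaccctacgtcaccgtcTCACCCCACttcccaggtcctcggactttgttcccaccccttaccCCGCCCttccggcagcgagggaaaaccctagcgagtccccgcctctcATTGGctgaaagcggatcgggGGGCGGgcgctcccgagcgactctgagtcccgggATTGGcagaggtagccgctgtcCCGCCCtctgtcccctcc
Hsd17b7: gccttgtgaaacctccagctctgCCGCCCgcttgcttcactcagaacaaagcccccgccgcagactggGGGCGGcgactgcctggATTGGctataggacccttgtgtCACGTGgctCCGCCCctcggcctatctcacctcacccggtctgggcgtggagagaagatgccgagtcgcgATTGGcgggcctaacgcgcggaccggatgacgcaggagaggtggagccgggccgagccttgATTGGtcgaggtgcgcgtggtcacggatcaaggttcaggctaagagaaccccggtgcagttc
Pmvk: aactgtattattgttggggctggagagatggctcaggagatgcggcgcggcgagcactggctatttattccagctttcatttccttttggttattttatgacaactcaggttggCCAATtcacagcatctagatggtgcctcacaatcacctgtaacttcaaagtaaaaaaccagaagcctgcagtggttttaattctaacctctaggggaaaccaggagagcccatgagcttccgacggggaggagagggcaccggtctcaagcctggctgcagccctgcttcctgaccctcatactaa

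The window of Elovl6, the gene that fell the most, held none of the 4 motifs. The Hmgcs1 window held the only SRE core among the 24 genes, 137 bases before the start, with 4 CCAAT and 3 GC boxes. Sc5d had 1 CCAAT, 1 E-box and 4 GC boxes, Mvk had 5 CCAAT and 2 GC boxes, and Hsd17b7, which rose, had 3 CCAAT, 1 E-box and 3 GC boxes, while Pmvk had 1 CCAAT. Of the 24 genes with a window, 19 held a CCAAT and 20 a GC box, or 79.2% and 83.3%, beside 41.1% and 38.2% of all 27025 genes with a window. Those 27025 genes were not limited to genes expressed in these samples, whereas all members passed the filter on low values. Shares among expressed genes alone were not computed. Among sterol enzymes 13 of 14 held a CCAAT, and among fatty acid enzymes 3 of 6. The E-box occurred in 5 of the 24 genes, or 20.8%, beside 8.09% of all genes, and the SRE core in 4.17% beside 1.44%. A CCAAT was in 8 of the 12 windows of genes that fell and in 10 of the 15 windows of genes with no call, or 66.7% in both. A match is a run of letters and not a shown binding site. The search took exact letters in these windows only, so a missing match does not show that a site is absent.

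**Figure D3:**
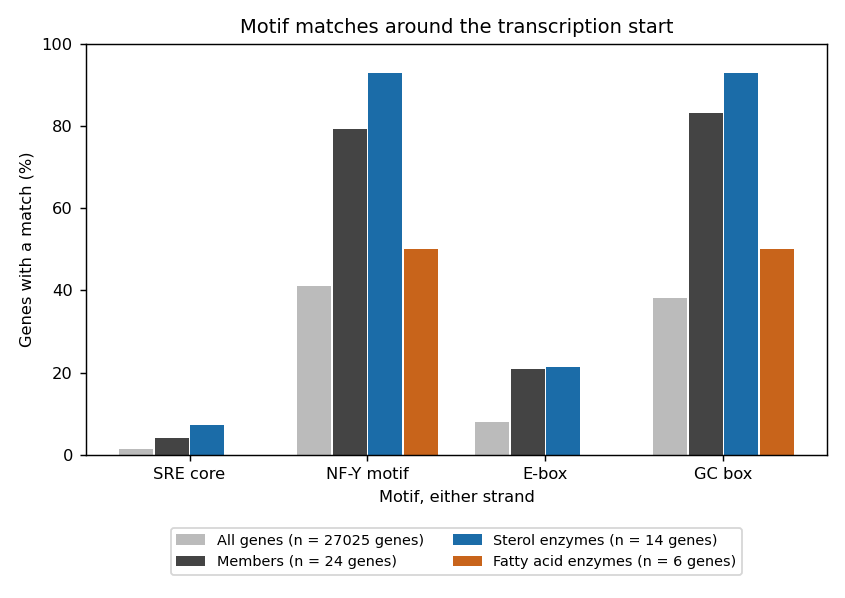
Share of genes whose promoter window held each motif. The y axis gives the percentage of genes with at least 1 match on either strand, and bars stand for all 27025 genes, the 24 members with a window, the 14 sterol enzymes and the 6 fatty acid enzymes. CCAAT, drawn as the NF-Y motif, reached 92.9% of sterol enzymes and 3 of the 6 fatty acid enzymes, beside 41.1% of all genes.

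The first steps of the sterol arm, from acetyl-CoA to farnesyl diphosphate, held 3 falls and 1 rise among 7 genes. Hmgcs1, the synthase that makes HMG-CoA (chromosome 13, 119690379 to 119708260, plus strand), measured 62.6 and 54.5 FPKM in siScr and 40.1 and 40.5 FPKM in siZBP1 cells. Both siZBP1 samples were below both siScr samples, a 1.45-fold fall (log2 fold change -0.53, SE 0.08, adjusted p = 0.0126). Mvk, the kinase that phosphorylates mevalonate (chromosome 5, 114444269 to 114460591, plus strand), measured 12.4 and 10.2 FPKM in siScr and 7.32 and 6.66 FPKM in siZBP1 cells. The groups did not overlap, and the fall was 1.62-fold (log2 fold change -0.62, SE 0.11, adjusted p = 0.0211). Acat2, the cytosolic thiolase that joins acetyl-CoA units, measured 10.6 and 9.05 FPKM in siScr and 6.01 and 7.23 FPKM in siZBP1 cells and was the least expressed sterol enzyme. It fell 1.48-fold with separate groups (log2 fold change -0.51, SE 0.12, adjusted p = 0.0404), but the related gene Acat3, at 18.6 FPKM in siScr and 17.7 FPKM in siZBP1 cells, could share its reads.

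Pmvk, the kinase that acts directly after Mvk (chromosome 3, 89454541 to 89469013, plus strand), moved the other way. It measured 8.42 and 8.51 FPKM in siScr and 11.5 and 10.7 FPKM in siZBP1 cells. The 2 siZBP1 samples were the higher ones, a 1.31-fold rise (log2 fold change 0.35, SE 0.07, adjusted p = 0.0242). The decarboxylase Mvd, the isomerase Idi1 and the farnesyl diphosphate synthase Fdps did not pass the test. Their log2 fold changes were 0.08 (95% interval -0.09 to 0.25), -0.12 (-0.39 to 0.16) and -0.24 (-0.46 to -0.03), with an adjusted p of 0.0849 for Fdps. Fdps was at -0.14 with siScr replicate 1 left out and at -0.35, past the threshold (adjusted p = 0.0294), with siScr replicate 2 left out.

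From farnesyl diphosphate to lanosterol, 2 of 3 enzymes fell. Sqle, the squalene epoxidase and a rate-controlling step of the pathway, measured 44.9 and 39.8 FPKM in siScr and 33.7 and 34 FPKM in siZBP1 cells. Both siZBP1 values were below the siScr values, a 1.25-fold fall (log2 fold change -0.31, SE 0.07, adjusted p = 0.0349). Lss, which closes the lanosterol ring system, measured 11.7 and 10.7 FPKM in siScr and 8.61 and 9.23 FPKM in siZBP1 cells. Its groups were also separate, with a 1.26-fold fall (log2 fold change -0.30, SE 0.08, adjusted p = 0.0461), the called gene nearest the threshold. The Lss call was lost with a pseudocount of 5 (adjusted p = 0.0511) and with no filter on low values (0.0726). It was also lost after quantile normalization (0.0598), without a variance trend (0.0564) and with a replicate block (0.0681). The squalene synthase gene Fdft1, at a log2 fold change of 0.10 (95% interval -0.06 to 0.26), overlaps Ctsb on the other strand. Ctsb averaged 2100 FPKM against 38.1 FPKM for Fdft1, and whether reads were counted by strand is not stated, so the Fdft1 value is uncertain.

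The enzymes after lanosterol split, with 3 lower, 1 higher and 3 without a call. Sc5d, the desaturase that acts late on the sterol ring (chromosome 9, 42251595 to 42264256, minus strand), measured 41.8 and 41.1 FPKM in siScr and 26.5 and 26.6 FPKM in siZBP1 cells. Replicates nearly coincided while the groups were far apart, a 1.56-fold fall (log2 fold change -0.62, SE 0.04, adjusted p = 0.00343), the lowest adjusted p of the 31 genes. Dhcr7, the reductase of the last step to cholesterol, measured 18.7 and 17.4 FPKM in siScr and 14.4 and 14 FPKM in siZBP1 cells. Its siZBP1 samples were both lower, a 1.27-fold fall (log2 fold change -0.33, SE 0.06, adjusted p = 0.0231). Nsdhl, a dehydrogenase of the demethylation steps, measured 20.1 and 18.2 FPKM in siScr and 15.6 and 15.8 FPKM in siZBP1 cells. That was a 1.22-fold fall without overlap (log2 fold change -0.27, SE 0.07, adjusted p = 0.0444).

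Hsd17b7, the ketosteroid reductase that works with Nsdhl (chromosome 1, 169949535 to 169969241, minus strand), measured 22.5 and 21.1 FPKM in siScr and 28.7 and 28.1 FPKM in siZBP1 cells. Both siZBP1 samples were above both siScr samples, a 1.3-fold rise (log2 fold change 0.37, SE 0.05, adjusted p = 0.013). Nsdhl and Hsd17b7, which act in the same demethylation, thus had fold changes of opposite sign. The Nsdhl call was lost with no filter on low values (adjusted p = 0.0625), after quantile normalization (0.0518), without a variance trend (0.0665), with a replicate block (0.0534) and with any sample but siScr replicate 2 left out (0.114 to 0.22). Msmo1, the methylsterol oxidase of that step and the most expressed sterol enzyme, measured 104 and 99.6 FPKM in siScr and 103 and 102 FPKM in siZBP1 cells, with overlapping groups and a 95% interval of -0.11 to 0.11 on the log2 scale. The lanosterol demethylase Cyp51 (log2 fold change -0.25, interval -0.53 to 0.03) and the sterol isomerase Ebp (0.21, interval 0.03 to 0.39, adjusted p = 0.0797) did not pass the test. Cyp51 rested on the siScr samples, at -0.10 without replicate 1 and at -0.40, past the threshold (adjusted p = 0.0314), without replicate 2.

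**Figure D4:**
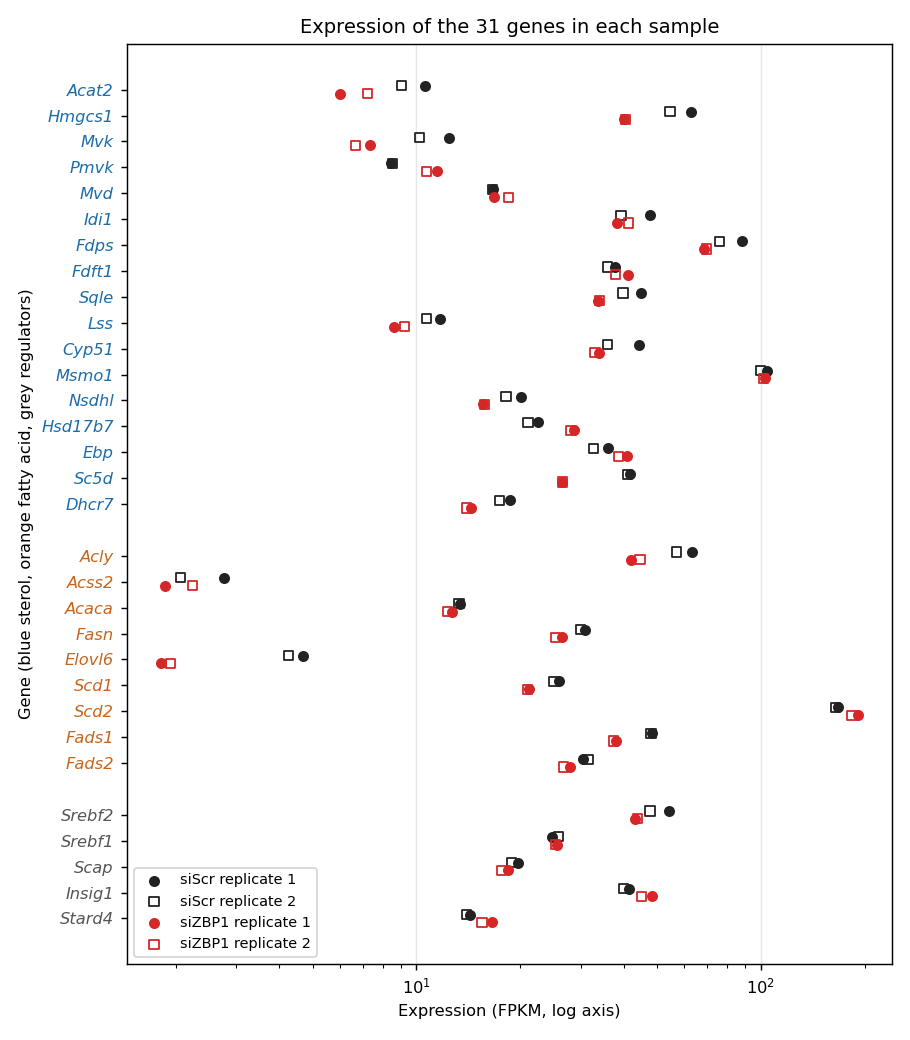
Expression of the 31 genes in each sample. The x axis gives FPKM on a log axis, genes run down the y axis in pathway order within the sterol enzymes (blue), fatty acid enzymes (orange) and regulators (grey), black marks are siScr and red marks siZBP1, circles are replicate 1 and squares replicate 2. Elovl6 shows the widest gap, 4.68 and 4.25 FPKM against 1.82 and 1.93 FPKM, while the Msmo1 marks overlap near 102 FPKM.

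In the fatty acid arm, the genes that supply acetyl-CoA were Acly and Acss2. Acly, which splits citrate into cytosolic acetyl-CoA for both arms, measured 63.1 and 56.8 FPKM in siScr and 42 and 44.6 FPKM in siZBP1 cells. Both siZBP1 samples were lower, a 1.38-fold fall (log2 fold change -0.46, SE 0.07, adjusted p = 0.0136). Acss2, which makes acetyl-CoA from acetate, was the least expressed of the 31 genes, at 2.77 and 2.07 FPKM in siScr and 1.86 and 2.24 FPKM in siZBP1 cells. Its groups overlapped (log2 fold change -0.16, 95% interval -0.56 to 0.24). Acss2 overlaps Gss, at a mean of 12.5 FPKM, on the other strand.

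Of the chain-building enzymes, Elovl6 and Fasn fell. Elovl6, the elongase that lengthens palmitate (chromosome 3, 129532355 to 129638495, plus strand), measured 4.68 and 4.25 FPKM in siScr and 1.82 and 1.93 FPKM in siZBP1 cells. The siZBP1 values were 2.39-fold lower with no overlap (log2 fold change -0.93, SE 0.10, adjusted p = 0.00731), the largest change of the 31 genes. Fasn, the fatty acid synthase, measured 30.9 and 29.9 FPKM in siScr and 26.5 and 25.3 FPKM in siZBP1 cells. Its groups were separate by a 1.17-fold fall (log2 fold change -0.22, SE 0.05, adjusted p = 0.037). Acaca, the carboxylase that makes malonyl-CoA for Fasn, had a log2 fold change of -0.09 (95% interval -0.24 to 0.06).

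The desaturases, which add double bonds, did not move together. Fads1, a front-end desaturase of polyunsaturated fatty acids, measured 48.3 and 48 FPKM in siScr and 38.1 and 37.3 FPKM in siZBP1 cells. Both siZBP1 samples were lower, a 1.28-fold fall (log2 fold change -0.34, SE 0.04, adjusted p = 0.00884). Its neighbour in that pathway, Fads2, lay at -0.18 (95% interval -0.31 to -0.05, adjusted p = 0.0601). Scd1, a stearoyl-CoA desaturase, measured 26 and 25.1 FPKM in siScr and 21.2 and 21 FPKM in siZBP1 cells. It fell 1.21-fold with separate groups (log2 fold change -0.27, SE 0.05, adjusted p = 0.0211). Scd2, the related desaturase and the most expressed of the 31 genes, measured 167 and 165 FPKM in siScr and 191 and 184 FPKM in siZBP1 cells. It rose 1.13-fold with separate groups (log2 fold change 0.17, SE 0.04, adjusted p = 0.0394), opposite in direction to Scd1. The Scd2 call did not hold with no filter on low values (adjusted p = 0.053), without a variance trend (0.0999), with a replicate block (0.0636) or with any sample left out (0.0907 to 0.231). Scd3 and Scd4 were under 0.3 FPKM in every sample. The summed FPKM of the fatty acid arm was 387 and 376 in siScr and 363 and 355 in siZBP1 cells, and that of the sterol arm 628 and 566 in siScr and 534 and 533 in siZBP1 cells.

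None of the regulators passed the adjusted threshold. Srebf2 measured 54.3 and 47.7 FPKM in siScr and 43 and 43.8 FPKM in siZBP1 cells. Both siZBP1 samples were below both siScr samples, at a log2 fold change of -0.22 (95% interval -0.42 to -0.03, adjusted p = 0.0835), and Srebf2 passed without siScr replicate 2. Srebf1 measured 24.7 and 25.9 FPKM in siScr and 25.6 and 25.3 FPKM in siZBP1 cells, with overlapping groups and a log2 fold change of 0.01 (95% interval -0.12 to 0.14). These values are transcript levels and do not measure the processing of the SREBP proteins.

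Scap, the escort of the SREBPs, measured 19.7 and 18.9 FPKM in siScr and 18.5 and 17.7 FPKM in siZBP1 cells. The groups were separate by a small margin (log2 fold change -0.09, 95% interval -0.23 to 0.06, adjusted p = 0.302). Insig1, the retention protein and itself an SREBP target, measured 41.3 and 39.9 FPKM in siScr and 48.2 and 45 FPKM in siZBP1 cells. Both siZBP1 samples were above the siScr samples (log2 fold change 0.20, 95% interval 0.05 to 0.34, adjusted p = 0.0563). Stard4, a cytosolic sterol carrier, measured 14.3 and 14 FPKM in siScr and 16.6 and 15.5 FPKM in siZBP1 cells. Its siZBP1 samples were also the higher ones (log2 fold change 0.17, 95% interval 0.01 to 0.33, adjusted p = 0.1).

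Other genes of these pathways were read from lists of 42 genes, of which 38 could be tested, and 8 were lower and 6 higher with a median log2 fold change of 0.0, beside the 14.8% lower and 13.5% higher among all genes tested. Among 14 further sterol pathway genes, 3 fell and 2 rose. Lbr, a sterol reductase and nuclear membrane protein, fell from 12.3 and 13 FPKM to 8.03 and 8.98 FPKM (log2 fold change -0.52, SE 0.08, adjusted p = 0.014), while Erlin2, an endoplasmic reticulum protein that takes part in sterol-regulated degradation, rose from 18.7 and 17.8 FPKM to 30 and 28.3 FPKM (0.65, SE 0.06, adjusted p = 0.00503).

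Of 9 genes of sterol efflux and LXR, the oxysterol receptor, 1 rose and 1 fell. Abca1, the cholesterol exporter, measured 31.3 and 34.1 FPKM in siScr and 59.7 and 59 FPKM in siZBP1 cells, above both siScr samples (log2 fold change 0.84, SE 0.06, adjusted p = 0.00343). Lpcat3, a phospholipid acyltransferase, fell from 24.1 and 23.3 FPKM to 15.3 and 14.1 FPKM (log2 fold change -0.65, SE 0.06, adjusted p = 0.00583). Among 15 further fatty acid genes tested of 19 listed, 4 fell and 3 rose. Acsl5, an acyl-CoA synthetase, fell by 0.65 on the log2 scale (SE 0.05, adjusted p = 0.0045) and the triglyceride synthase gene Dgat2 by 0.79 (SE 0.17, adjusted p = 0.0321). Lpin1, a phosphatidate phosphatase of glycerolipid synthesis, rose by 0.59 (SE 0.08, adjusted p = 0.0101).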

How the data were processed

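RNA from 4 samples (2 siScr, 2 siZBP1) was sequenced by the authors from TruSeq libraries. The deposited values are FPKM per gene, mapped with TopHat to mm10. The methods name HTSeq for the extraction of FPKM, and the submitters' processing notes name Cufflinks. The annotation is not given in the sources used here. Deposited group mean columns equalled the means of the replicates within 0.001 and were not used. Read numbers are not given, and the spacing of the lowest values, under 0.06 FPKM, gave depths relative to siZBP1 replicate 1 of 1.4 and 1.87 for siScr and 1.61 for siZBP1 replicate 2.

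To log2(FPKM + 1) of the 11959 genes with a mean of at least 1 FPKM, a limma model (limma 3.58.1 in R 4.3.3) of siZBP1 against siScr was fitted with a trend in the variance and no block, and p-values were adjusted by Benjamini and Hochberg over all of them at 0.05. The fit was also run on simulated data with changes larger than those of the 31 genes. That run does not test the recovery of changes as small as those of the members. An exact permutation test of 2 samples against 2 cannot give a two-sided p under 0.333. All 31 genes passed the filter on low values. The members, pathway lists and marker lists were chosen with earlier results of these data known. Named with values in each sample were the genes past the threshold, the regulators and the highest and lowest gene of each arm, and from each pathway list up to 3 genes with the largest change among those past the threshold, of which 1 is not reported here. Gene positions are from GENCODE M21 on GRCm38, and promoter windows from RefSeq on GRCm38.p6. Alternatives were other pseudocounts, filters, scalings and variance settings, a replicate block, and leaving out each sample.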

Additional observations from a re-analysis of the deposited data

How the results depend on the processing

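The call counts, the medians of both arms and the log2 fold changes of the named genes were recomputed under 13 alternatives, except that Elovl6, Acss2 and Dgat2 were not tested at a mean of at least 5 FPKM. The counts over 1.5-fold had 1 alternative and did not change, and the overlap counts, marker and pathway lists and motif shares were not recomputed. The number of sterol enzymes called lower, 8 as reported, was 5 with no filter on low values and 4 without a variance trend, and 0 to 8 with a sample left out; those called higher numbered 0 to 1 with a sample left out. The fatty acid enzymes called lower numbered 0 to 4 with a sample left out. Scd2, the only fatty acid enzyme called higher, was lost with no filter, without a variance trend and with a replicate block (0 in each), and with any sample left out (0). A regulator, Insig1, was called higher after scaling every sample to the same sum (1) and after quantile normalization (1), and with a sample left out 0 to 1 regulators were called lower. The sterol median ranged from -0.35 to -0.14 and the fatty acid median from -0.29 to -0.20 with a sample left out, and the latter was -0.20 with a pseudocount of 5. The Zbp1 log2 fold change ranged from -2.79 to -2.33 with a sample left out, and it missed the threshold at -2.55 and -2.57 without siZBP1 replicate 1 and 2. Uncalled genes near 0 changed sign: Msmo1 was -0.0037 after median-ratio scaling and -0.03 to 0.04 with a sample left out, Idi1 was -0.25 to 0.02 and Srebf1 -0.02 to 0.04 with a sample left out. Without a variance trend, Acat2, Sqle, Lss, Nsdhl, Fasn and Scd2 lost their calls. With no filter on low values, Acat2, Lss, Nsdhl and Scd2 lost theirs. With the replicate block, 13 of the 16 calls were kept, Lss, Nsdhl and Scd2 being lost and Ebp gained. Same-numbered samples did not deviate together over all genes (r = -0.063 across 11959 genes, which are not independent replicates). This correlation cannot show whether same-numbered samples were prepared together, and the labels give only a shared number. Quantile normalization moved the median of all genes to 0.0433. The cause of these changes was not tested, beyond fewer samples when one was left out. Unknown read numbers limit the precision of low genes such as Elovl6 and Acss2.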
